A study of Mus musculus with 8 samples.

Results

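The transcripts of 5 translation elongation factor genes, Eef1a1, Eef1b2, Eef1d, Eef1g and Eef2, were examined for RNA bound by MBD5 and MBD6 in mouse embryonic stem cells. A peak was counted for a gene when its midpoint lay in the gene body on the same strand (GENCODE vM21, mm10). This rule selected 63 of the 29555 peaks in the 4 CLIP-seq libraries, with 17 and 14 in the first and second Flag-MBD5 libraries and 15 and 17 in the first and second Flag-MBD6 libraries. No peak lay on the opposite strand of these genes. The genes were chosen as abundant mRNAs, a property that was not measured here apart from the input reads described below.

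CLIP-seq crosslinks protein to RNA in living cells, recovers the protein with an antibody and sequences the RNA fragments that come with it. The lines were wild-type mouse embryonic stem cells that stably overexpressed the human coding sequence of MBD5 or of MBD6 with a Flag tag, delivered by lentivirus and kept under hygromycin B. All cells were grown with serum, LIF, CHIR99021 and PD0325901, and feeder cells were cleared on gelatin before use. The 8 samples are 2 CLIP libraries of Flag-MBD5, 2 of Flag-MBD6 and 2 inputs for each protein, digested in parallel with RNase T1, an enzyme that cuts RNA after G. The peaks therefore describe a tagged human protein above its normal level, and no precipitate from cells without the tag is among the samples. The labels disagree on the antibody: the characteristics give one against Flag and the protocol for the extracts gives one against MBD6.

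Peptide elongation is the step at which the ribosome reads codons and extends the chain. The protein eEF1A, encoded by Eef1a1, brings aminoacyl-tRNA to the ribosome as a complex with GTP, and the eEF1B subunits encoded by Eef1b2, Eef1d and Eef1g recharge it with GTP. The protein eEF2, encoded by Eef2, is the GTPase that moves the ribosome to the next codon. These are housekeeping mRNAs, and many carry a pyrimidine tract at their 5′ end that couples their translation to growth signals.

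Because the libraries were cut with RNase T1, the 5′ ends of peaks are given with the RNA that follows. Start sites were defined, after the peaks had been seen, as runs of peaks whose 5′ ends lay within 30 nt of the next one, and 23 start sites held all 63 peaks. The sequences below are the strongest start sites of each mRNA by mean summit reads, at most 2 per gene, read from the GENCODE transcripts 5′ to 3′. The capital letter is the base just before the 5′ end used by the largest number of libraries. The lower case letters are the 29 nt from that end. At both Eef1g sites and at exon 3 of Eef2 no end was used by more than 1 library, and the first along the RNA was taken.
Eef1a1, start codon site: Gcuaauucaaagcaaaaaugggaaaggaaa
Eef1a1, exon 5: Guauccuaccaccaacucguccaacugaca
Eef1b2, exon 3: Gcccuagcaguguagaagacaccacaggaa
Eef1b2, intronic snoRNA Snora41: Gcauuccucugugggaaagaaacuguuaca
Eef1d, exon 6: Gucaaguggagcccccaaccaagaaaggag
Eef1g, exon 5: Gaagcgaauccuggggcugcuggacacuca
Eef1g, exon 7: Cagaaaccccaggcugagcggaaggaggaa
Eef2, exon 7: Guucgacgccaucaugaacuucaggaagga
Eef2, exon 3: Cccucuucuacgagcucucugagaacgacc

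The number of reads at each summit was solved from the deposited fold enrichment and p of the peak, and was scaled to 1000000 of the reads MACS2 used in the library (reads per 1000000, RPM). MACS2 used 478791 and 500143 reads of the Flag-MBD5 CLIP and 983918 and 1111742 of the Flag-MBD6 CLIP, a depth 2.14 times as large. Replicates of a protein varied less than sampling noise alone would give, with a chi-square per degree of freedom of 0.495 for Flag-MBD5 and 0.413 for Flag-MBD6. Pairs of values are given for the first and then the second library. Each protein was counted as 1 sample and no p-value is given for a difference between them. Peaks lay in 10 of 12 stem cell marker genes in at least 1 library and in 4 of 12 in every library, with none in Lin28a or Utf1. Beside them, 4268 of 21951 protein-coding genes had a peak in at least 1 library. Of 8 feeder markers, Fn1 had 13 to 19 peaks in each library and Vim had 1 peak in 1 library of each protein, while Col1a1, Col1a2, Col3a1, Postn, Thy1 and Lum had none.

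Eef2 carried the most signal of the 5 genes with both proteins. Reproducible regions, merged from peaks that overlap between the replicates of a protein, numbered 14 with Flag-MBD5 and 13 with Flag-MBD6 over the 5 genes. Eef2 held 10 and 7 of them, Eef1a1 held 2 and 3, and Eef1b2 and Eef1d held 1 and 1 each. Eef1g held no region with Flag-MBD5 and 1 with Flag-MBD6. At least 1 Flag-MBD5 region was thus found in 4 of the 5 genes, beside 7.80% of 21951 protein-coding genes, and at least 1 Flag-MBD6 region in 5 of 5, beside 13.8%. Regions of both proteins were found in 4 of 5 genes, beside 7.48% of protein-coding genes. The gene set was chosen for mRNA abundance, so these counts were read beside other abundant translation genes. Of 83 cytoplasmic ribosomal protein genes, 61.4% had regions of both proteins, and of 55 initiation factor genes, 40% did.

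The summed summit reads of Eef2 were 1358 and 1352 RPM with Flag-MBD5 and 535 and 549 RPM with Flag-MBD6. Eef2 ranked 9 among protein-coding genes by this sum with Flag-MBD5 and 28 with Flag-MBD6. Eef1a1 followed with 330 and 302 RPM with Flag-MBD5 and 201 and 187 RPM with Flag-MBD6. Both Flag-MBD5 libraries lay above both Flag-MBD6 libraries for Eef2 and Eef1a1. How many of all genes show this order was not computed, so nothing particular to these genes is read from it. Over all sites with a peak in every library, RPM was also lower with Flag-MBD6, with a median log2 ratio of −0.34. Each peak adds its summit to the sum, and Eef2 had 10 and 10 peaks with Flag-MBD5 and 8 and 9 with Flag-MBD6.

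The subunits of the exchange factor had less signal. Eef1d gave 113 and 106 RPM with Flag-MBD5 and 76.2 and 72.9 with Flag-MBD6, again without overlap. Eef1b2 gave 138 and 94.0 RPM with Flag-MBD5 and 67.1 and 121 with Flag-MBD6, so that the sums of the proteins overlapped. The higher library of each protein had 2 peaks summed there and the lower had 1. The peaks that began in exon 3 alone had 83.5 and 94.0 RPM with Flag-MBD5 and 67.1 and 64.8 with Flag-MBD6. Eef1g gave 41.8 RPM in the first Flag-MBD5 library, had no peak in the second, and gave 46.8 and 37.8 with Flag-MBD6, which left the proteins indistinct.

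**Figure D1:**
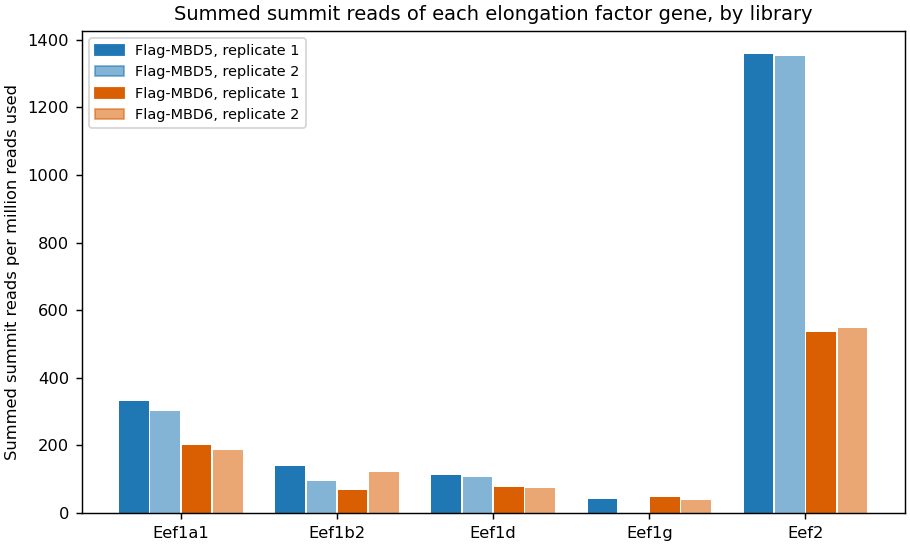
Summed summit reads in RPM (vertical axis) for each of the 5 genes (horizontal axis), with 1 bar per CLIP library. Eef2 stands highest at 1358 and 1352 with Flag-MBD5 and at 535 and 549 with Flag-MBD6, and the second Flag-MBD5 library has no bar for Eef1g.

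The order of the genes was similar per length of mRNA. The mean summed summit reads in RPM per kb of mRNA were 439 with Flag-MBD5 and 175 with Flag-MBD6 for Eef2, and 176 and 108 for Eef1a1. They were 59.8 and 48.6 for Eef1b2, 47.3 and 32.2 for Eef1d, and 11.2 and 22.7 for Eef1g. By the sums, the neighbours Eef1b2 and Eef1d did not differ beyond their spread, since in RPM the 2 libraries of each protein in Eef1b2 spanned those of Eef1d. That spread in Eef1b2 came with the unequal number of peaks summed. Regions per kb of mRNA were 3.24 and 2.27 in Eef2 and 1.11 and 1.67 in Eef1a1. The median was 1.06 with Flag-MBD5 and 1.17 with Flag-MBD6 over the ribosomal protein genes, whose mRNAs are short, with a median of 886 nt.

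Eef1a1 (ENSMUSG00000037742.14, chr9:78478449-78489151, minus strand) is transcribed into an mRNA of 1794 nt with 8 exons. Its strongest site lay across the start codon. Peaks at chr9:78479995-78480670 began in the 5′ untranslated region (UTR) within exon 2, 16 nt before the start codon in 3 libraries and 15 nt before it in the other. Summit reads there were 100 and 112 with Flag-MBD5 and 92 and 93 with Flag-MBD6, in spite of the greater depth of the latter. Fold enrichment over local background was 34.3 and 42.8 with Flag-MBD5 and 24.1 and 23.9 with Flag-MBD6. In RPM the site had 209 and 224 with Flag-MBD5 and 93.5 and 83.7 with Flag-MBD6.

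The second site of Eef1a1 began in coding exon 5 at 701 to 703 nt from the start codon. It had 26 summit reads in the first Flag-MBD5 library and 48 and 54 with Flag-MBD6, with summits 89 to 130 nt into the peak along the genome. The second Flag-MBD5 library had 1 long peak from the same start, whose summit of 39 reads lay 741 nt in, close to the summits of the exon 7 peaks, so that its reads at exon 5 are not known. The mean by which this site was chosen for printing includes these 39 reads. Peaks that began in exon 7 had 32 summit reads in the first Flag-MBD5 library and 58 and 61 with Flag-MBD6. All these peaks lay in stretches that other genes also carry, as described below.

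Eef1b2 (ENSMUSG00000025967.16, chr1:63176825-63180486, plus strand) encodes a catalytic exchange subunit. Its peaks began in exon 3 at 207 to 250 nt from the start codon, with summit reads of 40 and 47 with Flag-MBD5 and 66 and 72 with Flag-MBD6. The summits did not coincide: that of the second Flag-MBD5 library lay 89 nt into the peak, in exon 3, and those of the other 3 libraries lay 353 to 387 nt in, past the end of that exon. Peaks of all 4 libraries spanned the intronic snoRNA gene Gm26457. A further peak began at the same base, chr1:63179050, in the first Flag-MBD5 library with 26 summit reads and in the second Flag-MBD6 library with 63. This base lies in an intron of Eef1b2, at position 47 of the 132 nt of Snora41 (chr1:63179004-63179135), a box H/ACA snoRNA of the kind that guides pseudouridylation. Signal of the snoRNA and of unspliced Eef1b2 RNA at this base cannot be told apart from the peak lists.

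Eef1d (ENSMUSG00000055762.16, chr15:75894205-75909556, minus strand) encodes the delta exchange subunit. It had 1 peak in every library, at chr15:75896209-75896447 in coding exon 6, and 3 of the 4 libraries began at the same base. Summit reads were 54 and 53 with Flag-MBD5 and 75 and 81 with Flag-MBD6. Fold enrichment was 25.2 and 23.9 with Flag-MBD5, and it was 49.9 and 22.1 with Flag-MBD6. The Flag-MBD6 replicates thus had similar summit reads and differed in fold. In the first the background was the lowest rate of its strand, equal to 1.07 input reads, so that its fold was set by that rate. In the second the background was 5.00 input reads.

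Eef1g (ENSMUSG00000071644.10, chr19:8967041-8978479, plus strand) encodes the gamma subunit, which holds the exchange complex together. Its exon 5 site at chr19:8969871-8970086 had 20 summit reads in the first Flag-MBD5 library and 22 and 25 with Flag-MBD6. The second Flag-MBD5 library listed no peak there. Exon 7 had a peak of 24 summit reads in the first Flag-MBD6 library and exon 10 one of 17 in the second. Apart from an Eef2 peak of 21 in exon 11, no other of the 63 peaks had so few summit reads, and these were close to the medians of all peaks, which were 16 with Flag-MBD5 and 20 and 21 with Flag-MBD6.

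Eef2 (ENSMUSG00000034994.10, chr10:81176631-81182498, plus strand) has an mRNA of 3089 nt with 14 exons, and 12 start sites were spread from its 5′ UTR to its 3′ UTR. The strongest began in exon 7, 900 to 902 nt from the start codon (chr10:81179547-81180444), at the same base in 3 libraries. It had 167 and 158 summit reads with Flag-MBD5 and 145 and 160 with Flag-MBD6. Fold enrichment was 22.6 and 17.4 with Flag-MBD5 and 16.5 and 12.9 with Flag-MBD6. This was the largest summit of the 63 peaks in each library.

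The exon 3 site of Eef2 (chr10:81178062-81178336) had 110 and 103 summit reads with Flag-MBD5 and 98 and 99 with Flag-MBD6. The exon 4 site (chr10:81178712-81179460) had 87 and 95 with Flag-MBD5 and 74 and 83 with Flag-MBD6. With Flag-MBD5, fold enrichment differed between these sites more than the summits did: it was 11.7 and 10.9 at exon 3 and 31.8 and 32.1 at exon 4. Input reads per 150 bp were 21.0 and 20 at exon 3 and 4.40 and 4.65 at exon 4 in these libraries. The values at exon 3 are whole counts. Those at exon 4 are not, and are scaled from wider local windows. The exon 4 peaks spanned the intronic snoRNA Snord37 (chr10:81178950-81179013) in all 4 libraries, and their summits lay in coding sequence outside it.

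The 3′ UTR site of Eef2, 173 to 183 nt after the stop codon (chr10:81182256-81182421), had 41 and 43 summit reads with Flag-MBD5 and 47 and 50 with Flag-MBD6. Its fold enrichment was 10.8 and 5.92 with Flag-MBD5 and 2.57 and 2.84 with Flag-MBD6. Input reads there were 7.20 and 15.0 with Flag-MBD5 and 36.0 and 31.0 with Flag-MBD6. The Flag-MBD6 peaks of this site were the least enriched of all 63. Peaks began in exon 5 in the Flag-MBD5 libraries alone, with 49 summit reads in each. In both Flag-MBD6 libraries a longer peak from the preceding exon covered this stretch, so the Flag-MBD6 reads at exon 5 are not known. A 5′ UTR site began 40 nt before the start codon in the second Flag-MBD6 library with 48 summit reads.

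**Figure D2:**
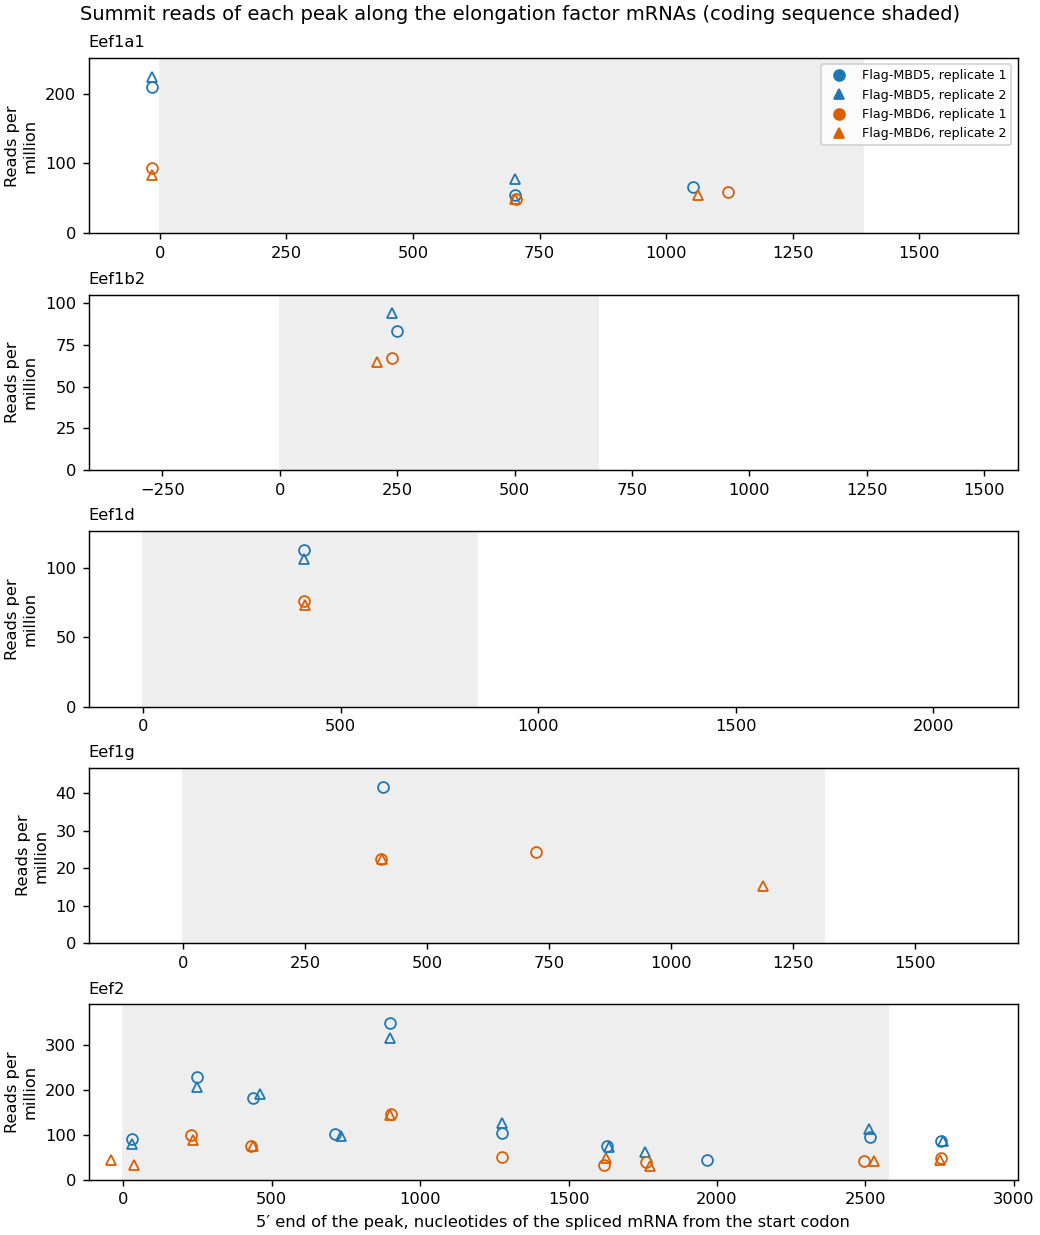
Summit reads in RPM (vertical axis) of each peak against the position of its 5′ end in the spliced mRNA, in nucleotides from the start codon (horizontal axis), with 1 panel per gene, a marker per library and the coding sequence shaded. The peaks of Eef1a1 at 16 and 15 nt before the start codon and of Eef2 at 900 to 902 nt are the highest of their mRNAs, and the 2 peaks that began in the Eef1b2 intron are left out.

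Regions were then compared to ask whether the proteins bound the same stretches, and most regions of these genes were shared. Of the 14 Flag-MBD5 regions, 13 overlapped a Flag-MBD6 region on the same strand (92.9%, 95% Wilson interval 68.5 to 98.7), beside 90.02% of the 4019 Flag-MBD5 regions in all. Of the 13 Flag-MBD6 regions, 12 overlapped a Flag-MBD5 region (92.3%, interval 66.7 to 98.6), beside 47.7% of 7484. The region without a partner was chr10:81177693-81177933 in exon 2 of Eef2 for Flag-MBD5 and chr19:8969871-8970070 in Eef1g for Flag-MBD6. Each of them did hold a peak of the other protein in 1 library, with 37 summit reads in the second Flag-MBD6 library for Eef2 and 20 in the first Flag-MBD5 library for Eef1g. With a reciprocal overlap of 50%, 64.3% of the Flag-MBD5 regions were shared. The Flag-MBD6 region chr10:81179547-81180489 of Eef2, for example, spanned 2 Flag-MBD5 regions.

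At sites where overlapping peaks were found in all 4 libraries, the elongation factor mRNAs had lower RPM with Flag-MBD6 than with Flag-MBD5. There were 11 such sites, 7 in Eef2, 2 in Eef1a1 and 1 each in Eef1b2 and Eef1d. Their log2 ratio of RPM, Flag-MBD6 over Flag-MBD5, had a median of −0.89 and ran from −1.31 to −0.35, and it lay below the median of all 3566 such sites (−0.34) at 11 of 11. At 5 of the 11 sites the RPM were at least 2-fold higher with Flag-MBD5, beside 9.96% of all sites, and at 0 of 11 they were at least 2-fold higher with Flag-MBD6, beside 0.841%.

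These 5 sites were the start codon site of Eef1a1, with a log2 ratio of −1.29 ± 0.15 (counting standard error, as for all such values), and 4 sites of Eef2. The ratio was −1.21 ± 0.14 at exon 3, −1.31 ± 0.16 at exon 4, −1.19 ± 0.12 at exon 7 and −1.31 ± 0.21 at exon 14 of Eef2. It was −0.55 ± 0.18 in Eef1d, −0.43 ± 0.20 in Eef1b2, where summits at different positions are compared, and −0.35 ± 0.22 at the site of Eef1a1 that spans exons 5 to 7. At the remaining 3 sites of Eef2 it was −0.88 ± 0.23 at exon 10, −0.63 ± 0.26 at exon 11 and −0.89 ± 0.22 in the 3′ UTR. At exon 11 the peak of the first Flag-MBD5 library began 1967 nt from the start codon, beside 1756 to 1776 nt in the other libraries. Summits at different positions are thus compared there as well. In Eef1d, in Eef1b2, at the exon 5 to 7 site of Eef1a1 and at exon 11 of Eef2 the difference from the median of all sites was within 2 counting standard errors.

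The sites had many reads in the input as well. The median of input reads per 150 bp was 5.92 over the 11 sites and 1.35 over all 3566, and each of the 11 lay at percentile 79.4 or higher among all sites. Their median of summit reads was 56.3 beside 28.3. Their median fold enrichment was 17.3 beside 15.1, much nearer to that of all sites than the reads were. The log2 ratio of fold enrichment, Flag-MBD6 over Flag-MBD5, had a median of −0.28 at the 11 sites and 0.41 at all sites. For input RPM the same log2 ratio had a median of −0.53 at the 11 sites and −0.13 at all sites. Among the 11 it was above 0 only in Eef1b2 (0.32) and at the 3′ UTR site of Eef2 (0.82). The part of this input difference in the ratios of summit RPM was not tested.

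The ratio of the proteins moved with the input at sites of all genes. Among sites under 1 input RPM the median log2 ratio was −0.18, and 6.51% of them were at least 2-fold higher with Flag-MBD5. The median was −0.40 between 1 and 2 input RPM, −0.60 between 2 and 5, which held 6 of the 11 sites, and −0.75 at 5 or more, which held the other 5. In the bin of 2 to 5, 17.4% of all sites were at least 2-fold higher with Flag-MBD5, and in the highest bin 19.4% were. The part of the input level in the ratios of the elongation factor sites was not tested. Nor was that of the limit of 5 identical reads per position that the study's methods give for peak calling.

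**Figure D3:**
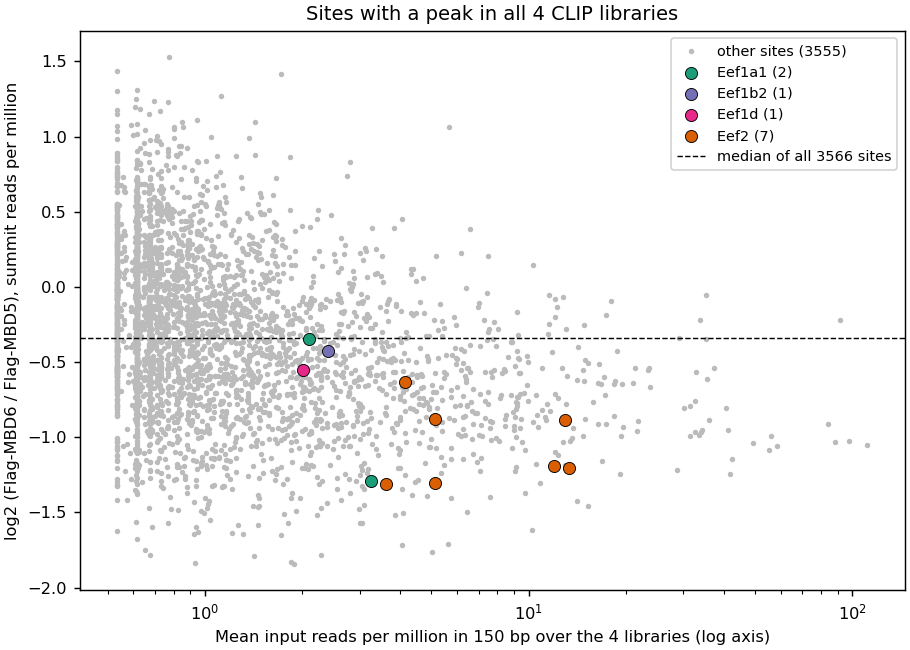
The log2 ratio of summit RPM, Flag-MBD6 over Flag-MBD5 (vertical axis), against the mean of input RPM per 150 bp (horizontal log axis) at the 3566 sites with peaks in all 4 libraries. The 11 elongation factor sites are coloured by gene and lie between −1.31 and −0.35, below the dashed median of all sites at −0.34.

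The same held at the level of single peaks. The median of summit reads was 43 and 51 over the elongation factor peaks of the Flag-MBD5 libraries, beside 16 and 16 over all peaks, and 49 and 54 beside 20 and 21 with Flag-MBD6. The median of input reads was 7.05 and 6.23 with Flag-MBD5, beside 1.00 and 1.00, and 5.85 and 6.60 with Flag-MBD6, beside 1.24 and 1.26. The background was the lowest rate of the strand at 38.8% and 38.4% of all Flag-MBD5 peaks and 59.4% and 57.6% of all Flag-MBD6 peaks. Among the elongation factor peaks this was so only for Eef1d in the first Flag-MBD6 library. The Flag-MBD6 medians of all peaks are thus this lowest rate in input reads, not reads counted at the peaks. Fold enrichment was close to that of all peaks, with medians of 12.3 and 13.6 beside 10.4 and 10.5 for Flag-MBD5 and of 12.3 and 11.8 beside 10.9 and 11.1 for Flag-MBD6. Peaks 300 bp wide or more made up 41.2% and 50% of the elongation factor peaks with Flag-MBD5, beside 8.65% and 8.61% of all peaks, and 53.3% and 47.1% with Flag-MBD6, beside 8.98% and 9.13%.

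**Figure D4:**
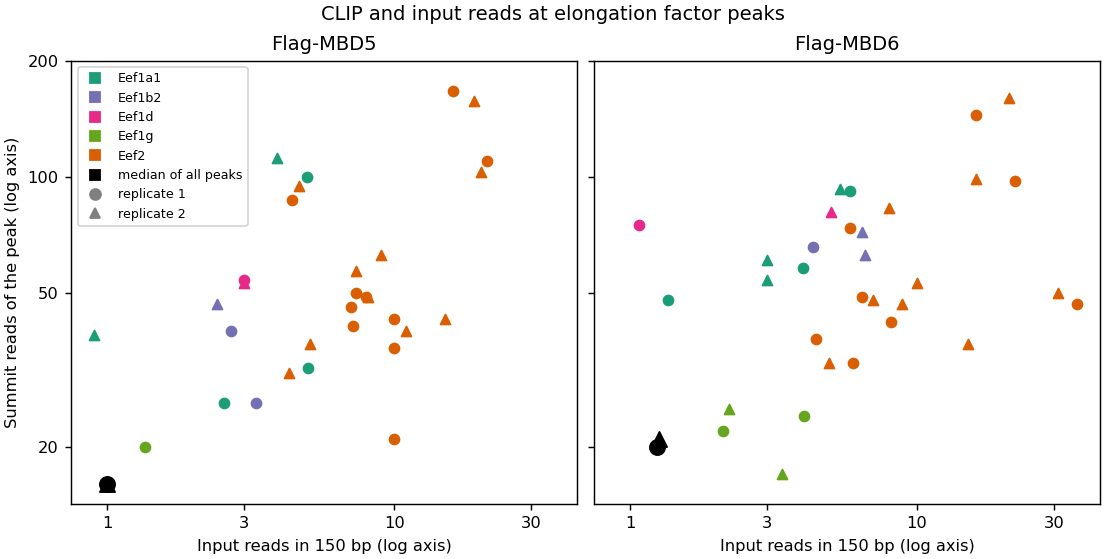
Summit reads of each elongation factor peak (vertical log axis) against the input reads per 150 bp at the peak (horizontal log axis), in 1 panel per protein, coloured by gene with a marker shape per replicate. The black markers are the medians of all peaks of each library, at 16 summit reads with Flag-MBD5 and 20 and 21 with Flag-MBD6. The elongation factor peaks lie mostly above and to the right of them. Exceptions are 1 peak of Eef1a1 (0.90 input reads), 1 of Eef1d (1.07, the lowest rate of its strand) and 1 of Eef1g (17 summit reads).

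The 5′ ends of the peaks fell mainly in coding sequence. Of 63 peaks, 52 began in coding sequence (82.5%, 95% Wilson interval 71.4 to 89.96), 5 in a 5′ UTR, 4 in a 3′ UTR and 2 in an intron. Among the 61 that began in an exon the coding share was 85.2%, beside 96.2% of 23262 peaks of the series that began in an exon of the main mRNA of a protein-coding gene. The 5′ UTR peaks were the 4 at the Eef1a1 start codon and the 1 of Eef2, and the 3′ UTR peaks were those of Eef2 described above. Reads were extended to 150 bases along the genome without splicing. The median exon here was 212 nt long, and 24 of the 61 peaks began with under 150 bases left in their exon. By their midpoints, 41 of 63 peaks lay in coding sequence and 13 in introns.

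The base just before the 5′ end was G in 42 of the 61 peaks (68.9%, interval 56.4 to 79.1), beside 77.1% of peaks of the series and a G content of 27.0% in the 5 mRNAs. It was C in 12 (19.7%), U in 5 and A in 2. Over the 50 distinct 5′ ends in exons, G preceded 31 (62%, interval 48.2 to 74.1). At the 9 sites printed above, a G preceded 7 and a C the other 2, at exon 7 of Eef1g and exon 3 of Eef2. At exon 3 of Eef2 each library began at its own base, after C with Flag-MBD6 and after G with Flag-MBD5. The 63 peaks had 51 distinct 5′ ends, of which 9 were used in at least 2 libraries. The 29 nt after the 5′ end held 29.3% A, 27.6% C, 26.7% G and 16.4% U over the peaks. The share of A was 38.3% over peaks of the series and 24.4% over the 5 mRNAs. By gene and over distinct 5′ ends, A made up 37.9% of these windows in Eef1d, 33.6% in Eef1a1 and 25.3% in Eef2.

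Some of these stretches also occur in other genes, which bears on where reads were placed. The windows searched were the base before the 5′ end and the 29 nt after it. Those of the start codon site of Eef1a1 had no copy in any other annotated gene, with up to 3 mismatches allowed. The summits of that site lay 130 to 146 nt from the 5′ end, past the windows. Whether the stretch under them has copies was not looked up, so its values may be uncertain as well. The exon 5 window of Eef1a1 had an exact copy in 6 other genes. Among them were the processed pseudogenes Gm6767, Gm5869 and AC133509.1, which held 4, 4 and 9 peaks. Another, the processed pseudogene Gm13456, which shares an unbroken run of 301 identical bases with the Eef1a1 mRNA, held 3, 3, 4 and 3 peaks in the 4 libraries. Reads from that exon could thus have been placed on Eef1a1 or on a copy, and the values of its exon 5 and exon 7 peaks are uncertain for this reason. The Eef1d window had an exact copy in 1 gene and the Eef1g windows in 2, and none of these copies held a peak. Of 32 windows at distinct 5′ ends in Eef2, 3 had an exact copy in 1 other gene, Gm13050, and 24, among them those of the exon 3 and exon 7 sites, had a copy in at least 1 gene with up to 3 mismatches. No window of the 3 distinct exonic 5′ ends of Eef1b2 had a copy at either tolerance. The processed pseudogenes Gm13050, Gm11400 and Gm12009, whose longest identical runs with the Eef2 mRNA were 101, 79 and 59 bases, held 9, 7 and 4 peaks.

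Further genes of the pathway were looked up beside the shares of all protein-coding genes. In a list of 32 genes for paralogs, regulators, mitochondrial factors and termination and rescue factors, 1 had regions of both proteins. This was Gspt1, which encodes the GTPase eRF3 of translation termination, with 2 Flag-MBD5 and 4 Flag-MBD6 regions. The count was 2 genes without the first Flag-MBD5 library and 3 without the second. A further 5 had a Flag-MBD6 region alone: Gfm1 and Gfm2, which encode mitochondrial counterparts of elongation factor G, Vars, a valyl-tRNA synthetase that binds the exchange complex, Etf1, the release factor eRF1, and Hbs1l, a ribosome rescue GTPase. The shares were 3.13% for both proteins and 18.8% for Flag-MBD6, near the 7.48% and 13.8% of protein-coding genes, and nothing is read from them about the list. No region was found in the 14 genes for regulators and modifying enzymes, among them Eef2k, the kinase of eEF2, and the diphthamide synthesis genes. The paralog Eef1a2, which is known from neurons and muscle, had no peak in any library. Eif5a, which encodes a factor that relieves stalls during elongation, had 1 peak of 18 summit reads, in the first Flag-MBD6 library.

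The gene nearest to each member was found by the distance of log2(summed RPM + 1) over the 4 libraries, among 2165 genes with a peak in every library. It was Gm9892 for Eef1a1 at a distance of 0.118, Gm8337 for Eef1d at 0.138, Rnu3a for Eef2 at 0.284 and Cpsf2 for Eef1b2 at 0.484. For Eef1g, which had no peak in the second Flag-MBD5 library, the nearest was Vps41 at 3.89. Rnu3a, a U3 small nucleolar RNA gene, had 1249 and 1218 RPM with Flag-MBD5 and 616 and 567 with Flag-MBD6, which was close to Eef2 in each library. The distance compares sums whatever the number of peaks, and the sums of Eef2 were over 10 and 10 peaks with Flag-MBD5 and 8 and 9 with Flag-MBD6.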

How the data were processed

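RNA bound by Flag-MBD5 and Flag-MBD6 was measured in mouse embryonic stem cells, and the peak lists of the 4 CLIP libraries were used. The 4 input samples enter only through the background rates below. Per the study's methods and the submitters' processing notes, the authors merged duplicates, discarded rRNA reads, mapped the remainder to mm10 with Bowtie 1.0.0 without splicing, split them by strand with SAMtools 1.16.1 and called peaks with MACS2 at q under 0.01, with a genome size of 130000000 bp and reads extended to 150 bp. The deposited score is 10 times −log10 q, rounded down. Fold enrichment was deposited as a ratio of summit to local background, with the same constant added to both. This constant lowers the fold most where the background is low. The p and q of MACS2 were deposited as −log10 values. The deposited summit, another column, is an offset in bases.

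Summit reads and background rates of all peaks were solved as the whole number and the Poisson rate that give both the fold and p. This worked for 100% of peaks and was tested on 2000 simulated peaks. The lowest rate on each strand gave the reads used. Between 83.6% and 93.3% of higher rates on a strand were whole numbers of input reads in 150 bp or 1000 bp (tolerance 0.003 reads), from which the input reads per 150 bp were taken. They are the largest of the local windows, scaled to 150 bp, or the lowest rate of the strand where no window rose above it. That this second library is the input was read from these rates. Totals and input reads are estimates from the peak lists.

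Peaks were compared on the same strand with an overlap of 1 bp or more. Intervals and standard errors cover counting error only, and nothing in the labels says that replicates came from separate cultures. Intervals over peaks count each peak separately, although the same start sites recur over the libraries, and are too narrow for that reason. The members, lists and tests were chosen with earlier results of these data known. By rule, all 5 members were described, with the sequence of their 2 strongest sites, the list genes with regions of both proteins, copies with peaks and the nearest gene. The list genes with a region of 1 protein, Eef1a2, Eif5a and Eef2k were named after their values were seen. The alternatives tried were q under 0.001, a fold of at least 4, a reciprocal overlap of 50%, no regard for strand, other positions to assign or classify a peak, the union of replicates, equal numbers of peaks, another depth, a replicate block and each library left out in turn. Python 3.11.15, numpy, pandas and scipy were used.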

Additional observations from a re-analysis of the deposited data

How the results depend on the processing

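With replicates left out in turn, the number of regions ran from 14 to 17 for Flag-MBD5 and from 13 to 17 for Flag-MBD6. The share of Flag-MBD5 regions with a Flag-MBD6 partner ran from 92.9% to 100%, and that of Flag-MBD6 regions with a Flag-MBD5 partner from 82.4% to 100%. The coding share of 5′ ends ran from 81.3% to 84.8%, the share after G from 63.8% to 73.3%, the median log2 ratio of RPM from −1.14 to −0.89 and the number of list genes with regions of both proteins from 1 to 3. A lone library was taken as it stood. The median log2 ratio was −1.03 at a fold minimum of 4, −1.03 with equally many peaks per library and −1.05 at a reciprocal overlap of 50%, with 10, 10 and 8 sites left. It was below 0 under every alternative run. The median of all sites, −0.34 in the main run, was not recomputed under them, so the difference from all sites was not checked this way. The share of Flag-MBD5 regions with a partner was 64.3% at a reciprocal overlap of 50% and 100% with the union of both libraries' peaks, which also gave 4 list genes. The coding share was 65.1% by the midpoint and 66.7% by the summit. Of the 48 recomputed values other than those without a library, the other 40 stayed within the error or 1.5-fold bounds. The replicate block gave a median log2 ratio of −0.90. Replicate numbers share only a number here, as the log2 differences between replicates 1 and 2 of the proteins correlated at 0.030 over 3566 sites. A missing peak, as in Eef1g in the second Flag-MBD5 library, means only that none passed q under 0.01. No sample group is large enough for a check of outlying samples.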
